A study of Homo sapiens with 24 samples.

Results

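Histone genes whose messages are caught by a poly(A)-selected library were followed in 686Tu cells (MDA686TU), a line from a squamous cell carcinoma of the head and neck, after treatment with EGCG, resveratrol or both. The genes were taken by symbol from the raw count table, and the 9 named symbols were all found among its 60617 genes: H1-2, H2AC6, H2BC4, H2BC5, H2BC12, H2BC21, H2AJ, H2AZ1 and H3-3B. The table holds 71 further genes of the histone lists used for comparison. All 9 passed the filter on low counts, as did 15476 genes in the whole table. There were 4 groups of 6 libraries: no treatment (NT), EGCG at 40 µM (the main polyphenol of green tea), Resveratrol at 15 µM (a stilbenoid polyphenol of grapes), and Combination (both agents at these doses). Treatment lasted 24 h in every treated group. All groups share the 1 cell line, so a difference between groups is a difference within this line. The resveratrol stock was made in DMSO, while EGCG was prepared with water; whether NT received solvent is not given in the sources used here. The labels number 6 replicates per group without saying that they are separate cultures, so that the tests measure the spread between these libraries, which may be technical.

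Histones package DNA. The core histones H2A, H2B, H3 and H4 form the nucleosome, and the linker histone H1 binds the DNA that enters and leaves it. Most histone genes lie in clusters, lack introns, are expressed in S phase together with DNA replication, and give messages that end in a conserved stem-loop instead of a poly(A) tail. The stem-loop is bound by SLBP and the message is cut just past it. A few of these replication-dependent genes also give longer, polyadenylated messages, a form described in cells that leave the cell cycle or differentiate. Replacement histones such as H3-3B and H2AZ1 come from genes with introns and ordinary polyadenylated messages, and are deposited outside replication as well. A library made by poly(A) selection therefore reads the replacement genes well and, of the replication-dependent genes, mainly the transcripts that carry a tail. The values below are levels of the transcripts that such a library holds, not of all histone mRNA. How far messages without a tail were carried along was not tested.

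The 3′ stem-loop separates both kinds of gene by sequence and is shown for that reason. It was searched as a stem of 6 paired bases that starts with GG around a 4-base loop that starts with TT, within 100 bases past the stop codon (GENCODE v44 gene models on GRCh38). It was found in 6 of the 9 genes, and these 6 are the replication-dependent ones. It was found in 58 of 64 other replication-dependent genes that were searched and in 1 of 9 other replacement and variant genes, which was H2AX. In each line the paired stem is in capitals, read 5′ to 3′ on the strand of the gene.
H1-2, chr6:26055744-26055759, minus strand, 28 bases past the stop codon: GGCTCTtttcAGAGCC
H2AC6, chr6:26124669-26124684, plus strand, 44 bases past the stop codon: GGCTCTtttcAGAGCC
H2BC4, chr6:26123472-26123487, minus strand, 37 bases past the stop codon: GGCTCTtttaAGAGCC
H2BC5, chr6:26158587-26158602, plus strand, 37 bases past the stop codon: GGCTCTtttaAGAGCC
H2BC12, chr6:27146366-27146381, minus strand, 37 bases past the stop codon: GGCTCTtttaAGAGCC
H2BC21, chr1:149886188-149886203, minus strand, 57 bases past the stop codon: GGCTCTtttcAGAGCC
The stems are identical in the 6 genes and the loops differ in the last base, with tttc in H1-2, H2AC6 and H2BC21 and ttta in H2BC4, H2BC5 and H2BC12.

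The annotation gives some of these genes a longer transcript. Transcripts that end more than 20 bases past the stem-loop were annotated for H2AC6 (2 of 3), H2BC4 (2 of 3), H2BC5 (1 of 2) and H2BC21 (1 of 1). The single annotated transcript of H1-2 and of H2BC12 ends at the stem-loop. The farthest annotated ends lie 1729 bases past the stem-loop for H2BC21, 12747 for H2BC5, 14432 for H2AC6 and 37155 for H2BC4, the last 3 by splicing to a distant exon. Among the other replication-dependent genes with a stem-loop and a row in the table, 6 of 11 with a longer annotated transcript passed the filter on low counts, against 7 of 45 without one. Their median normalized count was 12.1 and 1.1, respectively. The stem-loop was not found in the windows of H2AJ (chr12:14774405-14778002, plus strand), H2AZ1 (chr4:99948086-99950355, minus strand, 5 exons) and H3-3B (chr17:75776434-75785893, minus strand, 4 exons). H2AJ codes for a variant H2A outside the large clusters.

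Levels differed widely among the 9 genes. On the per-length scale of FPKM, as a mean over 24 libraries, H2AZ1, the H2A variant found at promoters, was highest at 210.1 FPKM, and H3-3B, which codes for histone H3.3, followed at 67.0 FPKM. H2AJ was at 26.01 FPKM, H2BC12 at 25.98 FPKM, H1-2 (a linker histone) at 14.1 FPKM and H2BC5 at 10.5 FPKM. H2AC6 was at 8.27 FPKM, H2BC4 at 4.60 FPKM and H2BC21 at 2.30 FPKM. The order is bound to the gene lengths that the authors divided by. The length implied by the files was 381 bases for H2BC12 and 642 bases for H1-2, close to their coding lengths, but 2194 bases for H2BC21 and 834 bases for H2BC4. With counts normalized per library and not per length, H2AC6 had more counts than H2BC12 in every group. The place of H2BC12 depended on the group: in NT it was above H2AJ (34.0 ± 1.21 against 25.4 ± 2.20 FPKM, mean ± SD, n = 6), and in Combination below it (17.8 ± 1.92 against 26.7 ± 1.88 FPKM). H2BC5 and H2AC6 were close to each other in NT, at 11.3 ± 1.19 and 9.51 ± 0.68 FPKM. The steps in this order were not tested.

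**Figure D1:**
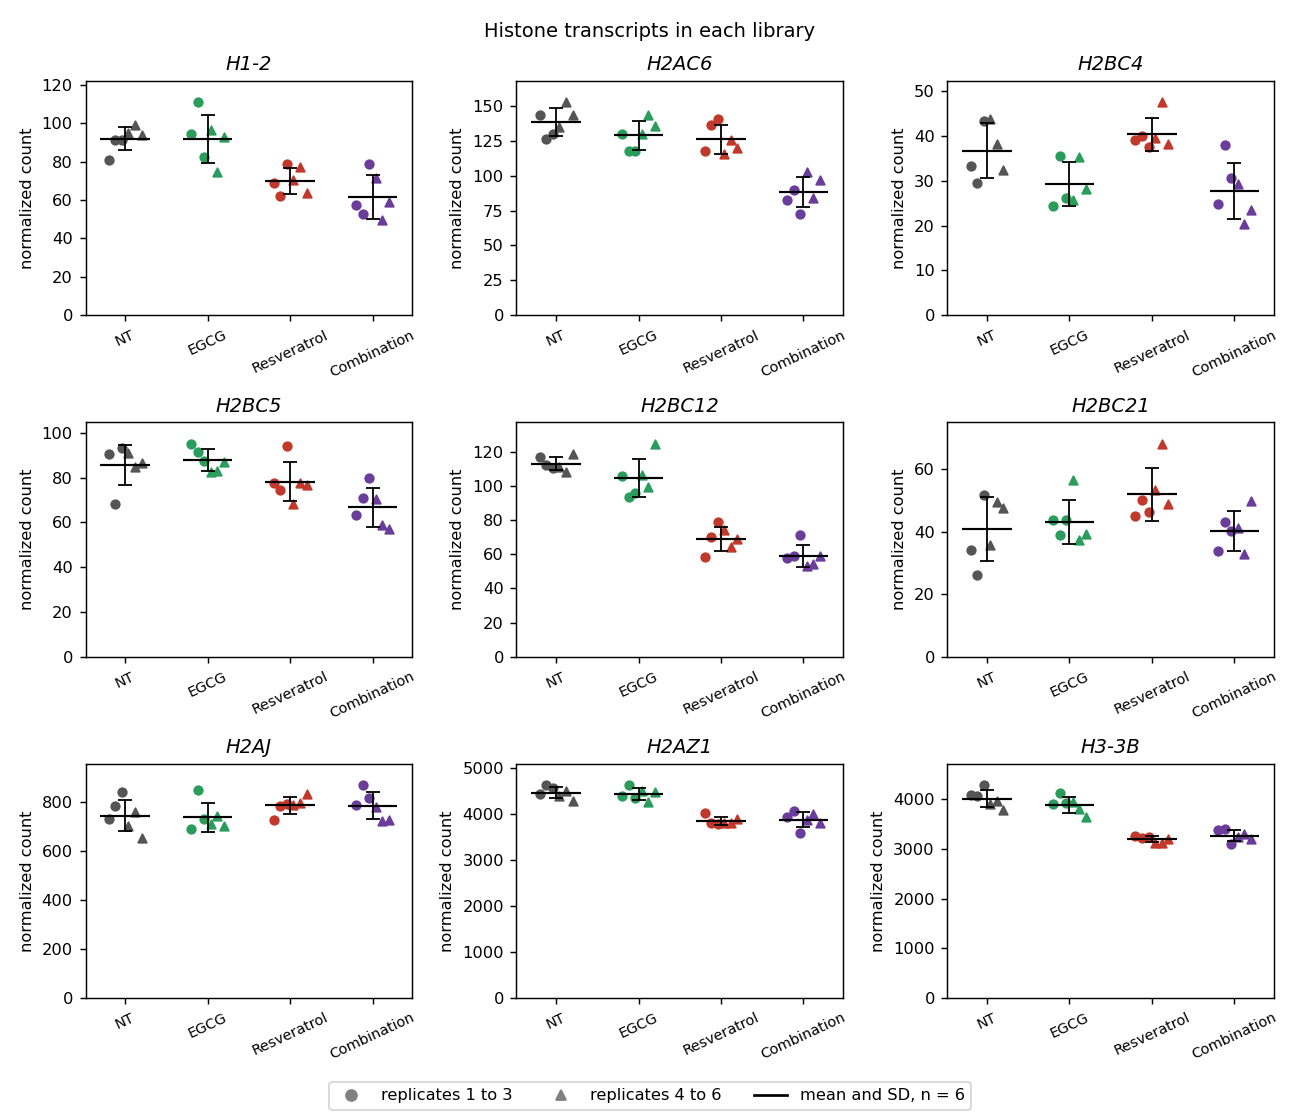
Normalized counts (raw counts divided by a size factor per library, linear axis from 0) of the 9 histone genes in each library, by group. Circles are replicates 1 to 3 and triangles replicates 4 to 6, and the line and bar give the mean and SD of 6 libraries. H1-2, H2BC12, H2AZ1 and H3-3B lie lower in all Resveratrol and Combination libraries than in all NT libraries. H2AC6 is lower in all Combination libraries than in any other library, and H2AJ overlaps in all groups.

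The libraries held 7034872 to 11735574 counts. The mitochondrial share ranged from 0.249% to 0.326% over replicates 1 to 3 of all groups and from 0.448% to 0.775% over replicates 4 to 6, so these sets of replicates stand apart, with each group in both. The values within each set are given where a call was lost in one of them. The 10 squamous epithelial markers all passed the filter, with KRT14 at 1478 FPKM, KRT6A at 1403 FPKM and KRT5 at 1136 FPKM. Of 12 markers of other cell types, 3 passed (COL1A1, COL1A2 and VWF), with COL1A1, a collagen chain, at 15.3 FPKM, while the leukocyte marker PTPRC had 8 counts and the endothelial marker PECAM1 2 counts in all 24 libraries together. COL1A1 was called with each treatment, at -0.27 with EGCG, 0.29 with Resveratrol and 0.48 with Combination (log2 fold change against NT), and its part in the histone results was not tested. In bulk libraries, fewer cells that express a gene and less RNA per cell cannot be told apart.

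With EGCG alone none of the 9 histone genes passed the test. edgeR called 0 of the 9 genes (a gene is called at an adjusted p under 0.1 with p under 0.05, over all genes tested), while 1.76% of all genes tested were called. One gene had an unadjusted p under 0.05, and DESeq2 also called 0. That gene was H2BC4, which codes for an H2B. It had a lowest, median and highest normalized count of 29.4, 35.7 and 43.9 in NT and 24.4, 27.2 and 35.6 in EGCG. The groups overlapped, although all 6 EGCG libraries were below the NT mean. Its log2 fold change was -0.32 ± 0.142 (SE, n = 6 per group), with an edgeR adjusted p of 0.406. The 95% interval of the log2 fold change with EGCG was -0.067 to 0.048 for H2AZ1 and -0.104 to 0.020 for H3-3B, and it was wider for the low genes, for example -0.23 to 0.36 for H2BC21. In none of the 9 genes were the NT and EGCG groups free of overlap, against 1.58% of all genes tested.

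Resveratrol lowered 4 of the 9 genes (H1-2, H2BC12, H2AZ1 and H3-3B) and raised 1 (H2BC21). The share called among all genes tested was 56.9%, with 28.0% lower and 28.9% higher, so that 5 of 9 called is near the background. The median log2 fold change of the 9 genes was -0.13, and the median of all genes tested was 0.0037. The groups did not overlap in 4 of the 9, the same 4 that were lower, against 31.0% of all genes tested. All comparisons with NT use the same 6 NT libraries and are not independent of each other.

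H2BC12, an H2B gene in the chromosome 6 cluster, fell most among the 9. Its normalized count had a lowest, median and highest value of 108.2, 111.8 and 118.7 in NT and of 58.3, 69.5 and 78.6 in Resveratrol. Every Resveratrol library was below every NT library. The log2 fold change was -0.70 ± 0.083 (SE, n = 6 per group; edgeR adjusted p = 5.9e-09), a fall of 38.6%, and the exact permutation test of 6 against 6 libraries gave p = 0.00216, the smallest it can give (0.00649 after adjustment over 45 tests). Within the sets of replicates it was -0.70 (1 to 3) and -0.71 (4 to 6).

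H1-2, the linker histone gene, had a lowest, median and highest normalized count of 81.1, 92.7 and 98.96 in NT and 62.0, 69.5 and 78.6 in Resveratrol. These groups did not overlap either. Its log2 fold change was -0.39 ± 0.101 (SE; edgeR adjusted p = 0.0016). H2BC21, an H2B gene on chromosome 1, went the other way, from 26.3, 41.6 and 51.7 in NT to 44.9, 49.6 and 68.1 in Resveratrol. The groups overlapped. Its log2 fold change was 0.34 ± 0.138 (SE; edgeR adjusted p = 0.0378), but the exact permutation test gave p = 0.0801 (0.144 adjusted). The call was lost without Resveratrol replicate 5, the highest library, at 0.25 (edgeR adjusted p = 0.131), and without NT replicate 2, the lowest, at 0.25 (edgeR adjusted p = 0.127), or NT replicate 1, at 0.29 (edgeR adjusted p = 0.0961, with an unadjusted p not under 0.05). It was also lost in replicates 1 to 3 alone (0.33) and 4 to 6 alone (0.36), at a similar size. The other 3 genes with a stem-loop were not called, with log2 fold changes of -0.13 for H2AC6, -0.13 for H2BC5 and 0.14 for H2BC4.

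With both agents, 7 of the 9 genes were lower than in NT and 0 were higher; H2BC21 and H2AJ were not called. The share called among all genes tested was 59.8%, with 29.9% lower and 29.9% higher. The median log2 fold change of the 9 genes was -0.35, against -0.0015 for all genes tested. In 5 of the 9 genes the groups did not overlap, against 31.9% of all genes tested: H1-2, H2AC6, H2BC12, H2AZ1 and H3-3B. Of the 6 replication-dependent genes 5 were called, and of the 3 replacement and variant genes 2. The log2 fold changes of these 5 were -0.92 for H2BC12, -0.65 for H2AC6, -0.56 for H1-2, -0.39 for H2BC4 and -0.35 for H2BC5. Those of the 2 were -0.29 for H3-3B and -0.20 for H2AZ1. The genes not called were at -0.02 (H2BC21, replication-dependent) and 0.08 (H2AJ).

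H2BC12 had a lowest, median and highest normalized count of 53.1, 58.3 and 71.0 in Combination, all below the lowest NT library, and its log2 fold change of -0.92 ± 0.088 (SE, n = 6 per group; edgeR adjusted p = 2.87e-11) is a fall of 47.3%. H2AC6, an H2A gene, had 126.0, 139.0 and 152.6 in NT and 72.8, 86.7 and 102.9 in Combination. These groups did not overlap, and the log2 fold change was -0.65 ± 0.083 (SE; edgeR adjusted p = 2.05e-08), a fall of 36.5%. H1-2 had 49.9, 58.3 and 78.9 in Combination and a log2 fold change of -0.56 ± 0.106 (SE; edgeR adjusted p = 2.75e-05). For the other called genes with a stem-loop the groups overlapped. H2BC5, an H2B gene, ran from 68.3 to 93.2 in NT with a median of 88.4 and from 57.1 to 79.8 in Combination with a median of 66.8 (edgeR adjusted p = 0.00193). H2BC4 ran from 20.4 to 38.0 in Combination with a median of 27.0, and from 29.4 to 43.9 in NT (edgeR adjusted p = 0.0212). Both calls leaned on replicates 4 to 6: within replicates 1 to 3 the log2 fold change of H2BC4 was -0.18, against -0.64 within replicates 4 to 6, and that of H2BC5 was -0.23 and -0.49, and neither was called in replicates 1 to 3 alone. H2BC21 was close to NT, at -0.02 with a 95% interval of -0.32 to 0.28.

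**Figure D2:**
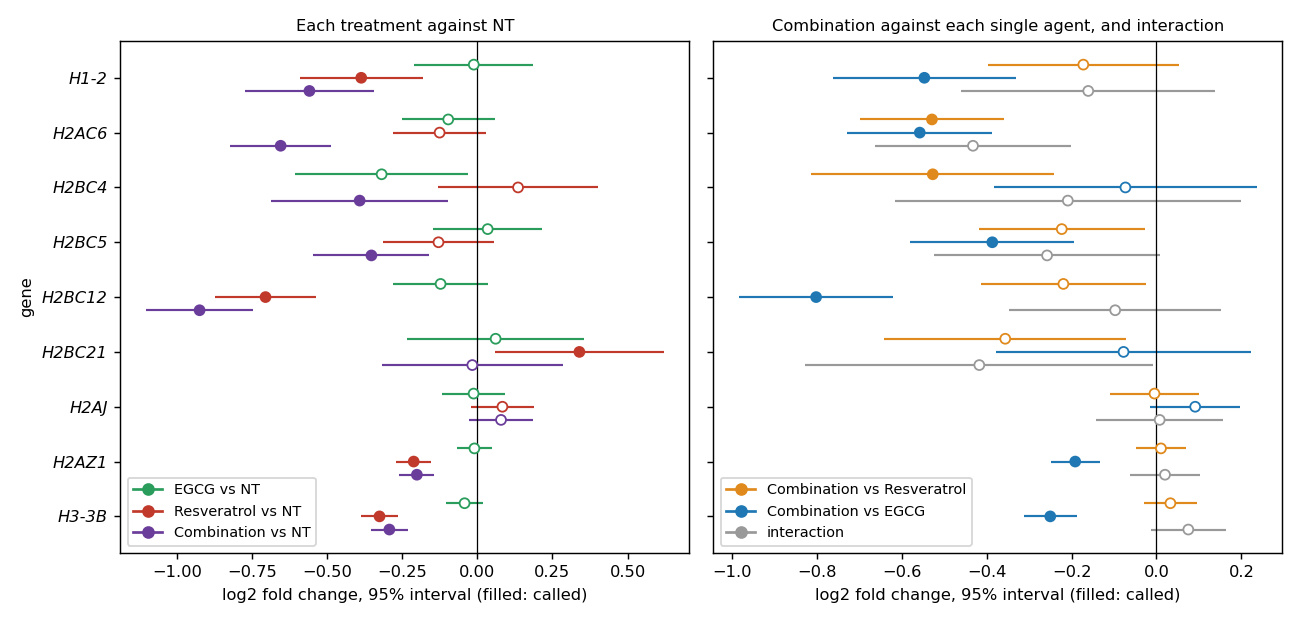
Log2 fold changes of the 9 histone genes by edgeR with 95% intervals, each treatment against NT (left) and Combination against each single agent with the interaction (right); filled points were called. The Combination estimates of the 5 called stem-loop genes lie between -0.92 and -0.35, and those of H2AZ1 and H3-3B are nearly the same with Resveratrol as with Combination.

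In Combination 2 of the 9 genes, H2AC6 and H2BC4, were lower than with Resveratrol alone, which had called neither against NT. Of all genes tested, 7.86% were called between Combination and Resveratrol, and 3.86% were called lower. H2AC6 had a lowest, median and highest normalized count of 115.7, 123.0 and 140.6 in Resveratrol, all above the highest Combination library (102.9). This was 1 gene of 9 whose groups did not overlap, against 3.20% of all genes tested. Its log2 fold change was -0.53 ± 0.084 (SE, n = 6 per group; edgeR adjusted p = 5.68e-05), with -0.70 within replicates 1 to 3 and -0.35 within replicates 4 to 6, where it was not called alone. H2BC4 ran from 37.5 to 47.5 in Resveratrol with a median of 39.4. It overlapped with Combination by 1 library, and its log2 fold change was -0.53 ± 0.141 (SE; edgeR adjusted p = 0.0206), with -0.32 in replicates 1 to 3, not called alone, and -0.77 in replicates 4 to 6. In all 5 genes with an unadjusted p under 0.05 the direction was lower. The 3 besides H2AC6 and H2BC4 were H2BC5 (-0.22), H2BC12 (-0.22) and H2BC21 (-0.36), at edgeR adjusted p of 0.201, 0.229 and 0.152. H2AZ1 and H3-3B had intervals of -0.05 to 0.07 and -0.03 to 0.10 for this difference.

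H2AC6 and H2BC4, the pair called between Combination and Resveratrol, lie back to back. Their annotated RefSeq starts on GRCh38.p14 are chr6:26124172 (plus strand) and chr6:26123926 (minus strand), with 245 bases between them, so both promoters share this stretch. It is shown with the sites of 3 motifs searched on both strands in capitals: the octamer ATTTGCAT (bound by OCT1 and part of histone H2B promoters), CCAAT, and TATAAA, each also marked where it reads on the other strand.
H2BC4 and H2AC6, chr6:26123922-26124176, read on the H2BC4 (minus) strand: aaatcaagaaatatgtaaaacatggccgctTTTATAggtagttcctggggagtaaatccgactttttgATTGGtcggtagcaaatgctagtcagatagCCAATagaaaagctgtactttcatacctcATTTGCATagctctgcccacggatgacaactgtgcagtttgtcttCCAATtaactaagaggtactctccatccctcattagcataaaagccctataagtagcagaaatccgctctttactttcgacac
The window holds 1 octamer, whose first base is 123 bases upstream of the H2BC4 start. The promoters of H2BC12 and H2BC21, of which the first fell with Resveratrol and the second did not, are shown beside it from 120 bases before to 30 after the start.
H2BC12, chr6:27146829-27146978, minus strand: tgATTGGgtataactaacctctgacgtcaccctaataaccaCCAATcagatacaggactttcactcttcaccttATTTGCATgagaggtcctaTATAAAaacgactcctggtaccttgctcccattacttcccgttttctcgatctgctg
H2BC21, chr1:149886653-149886802, minus strand: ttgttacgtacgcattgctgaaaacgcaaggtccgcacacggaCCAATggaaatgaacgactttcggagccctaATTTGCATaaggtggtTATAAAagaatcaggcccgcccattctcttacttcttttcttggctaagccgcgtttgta
H1-2, chr6:26056441-26056590, minus strand: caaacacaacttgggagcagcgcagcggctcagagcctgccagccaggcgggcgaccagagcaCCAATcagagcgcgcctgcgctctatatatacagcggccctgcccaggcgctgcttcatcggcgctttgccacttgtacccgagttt
In both H2B promoters the octamer begins 46 bases upstream of the start. With Resveratrol the log2 fold changes were -0.70 for H2BC12 and 0.34 for H2BC21. The exact permutation test of H2BC21 gave p = 0.0801, and its call was lost in some fits that left out 1 library. The part of the motif in these changes was not tested. The H1-2 window holds a CCAAT and no octamer.

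Over windows of 250 bases before to 50 after the start, the octamer was found in 5 of the 9 genes (H2BC4, H2BC12 and H2BC21 and, on the reverse strand, H2AC6 and H3-3B), against 2.19% of 27305 genes with a window. The match of H2AC6 is the same site as that of H2BC4 in their shared stretch, so the 5 genes hold 4 sites. The octamer was found in 22 of 58 other replication-dependent genes, with 11 of 14 among their H2B genes, and in 0 of 7 other replacement and variant genes. Some of these genes also share 1 site, as H2AC11 and H2BC11 do, and H2AC20 shares that of H2BC21. H3C4 was scored on the same window as H2AC7. The sites are therefore fewer than the genes. CCAAT was found in all 9 genes, against 39.7% of the 27305 genes, and TATAAA in 7 of the 9, against 14%. The histone genes were scored on their first window only, and the 27305 genes on any of their windows. The motifs do not overlap one another. The matches describe the letters in these windows.

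Against EGCG alone, 6 of the 9 genes were lower in Combination (H1-2, H2AC6, H2BC5, H2BC12, H2AZ1 and H3-3B), with 57.8% of all genes tested called and 29.1% called lower. Their log2 fold changes ran from -0.80 for H2BC12 to -0.19 for H2AZ1. In 5 of the 9 genes the groups did not overlap, against 27.5% of all genes tested. H2BC4 was not among the called genes, at -0.07, since its EGCG libraries (median 27.2) were already near the Combination libraries (median 27.0).

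The interaction asks whether the log2 change with both agents differs from the sum of the single changes. None of the 9 genes was called by edgeR, against 0.265% of all genes tested, and 2 had an unadjusted p under 0.05 by edgeR. DESeq2 called none either, but it gave no adjusted p for H2BC4 and H2BC21. H2AC6 was the clearest, with log2 fold changes against NT of -0.10 with EGCG, -0.13 with Resveratrol and -0.65 with both. Its interaction was -0.43 ± 0.114 (SE; edgeR adjusted p = 0.134). Without NT replicate 5 it was -0.46 (edgeR adjusted p = 0.0996), and without Combination replicate 4 it was -0.48 (edgeR adjusted p = 0.061), so either library decides the call. With a term for the set of replicates (1 to 3 against 4 to 6) H2AC6 was called, at -0.44 (edgeR adjusted p = 0.0858). Within replicates 1 to 3 the estimate was -0.58, and within replicates 4 to 6 it was -0.29. H2BC21 had an interaction of -0.42 ± 0.202 (SE; edgeR adjusted p = 0.64). For H2AZ1 and H3-3B the intervals of the interaction were -0.06 to 0.10 and -0.01 to 0.16.

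Of the replacement and variant genes among the 9, H2AZ1 and H3-3B gave small but tight changes. H2AZ1 had a lowest, median and highest normalized count of 4288, 4477 and 4629 in NT, 3782, 3811 and 4017 in Resveratrol, and 3603, 3909 and 4074 in Combination. Every Resveratrol and Combination library was below every NT library. Its log2 fold change was -0.21 ± 0.029 with Resveratrol (SE, n = 6 per group; edgeR adjusted p = 9.7e-08) and -0.20 ± 0.029 with Combination (edgeR adjusted p = 2.18e-07), which are falls of 13.6% and 13%. H3-3B had 3778, 4008 and 4277 in NT, 3106, 3206 and 3254 in Resveratrol, and 3092, 3264 and 3391 in Combination. These groups did not overlap with NT either. Its log2 fold change was -0.33 ± 0.031 with Resveratrol (edgeR adjusted p = 2.93e-11) and -0.29 ± 0.031 with Combination (edgeR adjusted p = 3.02e-10), falls of 20.2% and 18.4%. H2AJ, which lacks the stem-loop in the window searched, had medians of 742.3 in NT, 720.8 in EGCG, 788.6 in Resveratrol and 782.4 in Combination, with overlap in every comparison. Its 95% intervals against NT were -0.02 to 0.19 with Resveratrol and -0.03 to 0.18 with Combination. With Resveratrol its log2 fold change was -0.02 within replicates 1 to 3 and 0.19 within replicates 4 to 6. H2AJ was called higher in some fits that left out 1 library: with Resveratrol at 0.12 without NT replicate 3 and 0.10 without EGCG replicate 2, and with Combination at 0.12 without NT replicate 3. Against EGCG, Combination was at 0.09 (not called), and was called at 0.15 without EGCG replicate 2 (edgeR adjusted p = 0.0116), at 0.11 without NT replicate 5, and at 0.11 without Combination replicate 5 or 6.

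Some counts may be shared between near-identical copies, since how reads that match several genes were counted is not given in the sources used here. H3-3B has many processed pseudogenes. The H3 pseudogenes with counts (20 of 47) were summed without sorting them by parent gene. Their summed normalized count was 2329 ± 133.2 in NT, 2309 ± 128.9 in EGCG, 2249 ± 159.4 in Resveratrol and 2355 ± 133.9 in Combination (mean ± SD, n = 6), which differ by less than the spread. The largest of these pseudogenes, H3P6, was not called, at -0.05 with Resveratrol and -0.01 with Combination. Pseudogenes of other H3 genes may be among them, so these values cannot tell whether H3-3B shares reads. The H2AZ pseudogenes summed to 233.3 ± 20.7 in NT, 202.7 ± 13.03 in Resveratrol and 205.2 ± 9.99 in Combination, far below H2AZ1 itself. The H4 copies H4C14 and H4C15 had equal counts in 7 of 24 libraries with a difference of at most 6, and the H3 copies H3C14 and H3C15 had equal counts in 17 of 24 with a difference of at most 1, so that each pair is 1 measurement. None of the pairs compared within the 9 genes had equal counts in any library, but the H2B coding sequences are alike and their single values carry this doubt. The counts of the 4 H2B genes summed gave -0.20 with Resveratrol (edgeR adjusted p = 0.0047), -0.50 with Combination (edgeR adjusted p = 1.71e-08) and -0.30 for Combination against Resveratrol (edgeR adjusted p = 0.00291). From NT to Resveratrol the mean normalized count of H2BC12 went from 113 to 68.99 and that of H2BC21 from 40.8 to 52.0. The sum therefore cannot show whether H2BC21 rose. Genes on the opposite strand overlap H2BC4 (HFE, 131.7 mean raw counts) and H3-3B (UNK, 210.0 mean raw counts). HFE rose by 0.34 with Resveratrol and 0.32 with Combination, and UNK by 0.30 and 0.26 (log2). The kit marks strand, but the strand setting of the counting is not given in the sources used here.

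**Figure D3:**
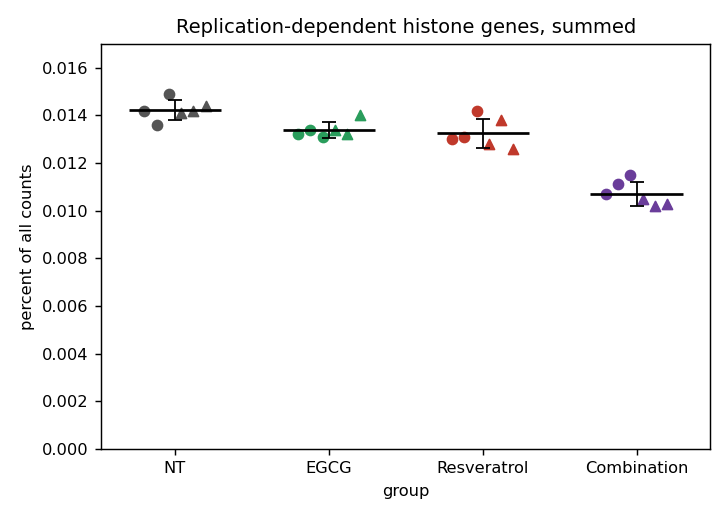
Summed counts of the replication-dependent histone genes analysed here, as a percent of all counts in each library (axis from 0), by group. Circles are replicates 1 to 3, triangles replicates 4 to 6, and the line and bar give the mean and SD of 6 libraries. Both genes of the near-identical pairs H4C14 and H4C15, and H3C14 and H3C15, are in the sum. All Combination libraries (0.0102% to 0.0115%) lie below all others.

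The replication-dependent genes together took 0.0136% to 0.0149% of all counts in NT, 0.0131% to 0.014% in EGCG, 0.0126% to 0.0142% in Resveratrol and 0.0102% to 0.0115% in Combination. This share was lower in every Combination library than in any other library. It counts both genes of the near-identical pairs H4C14 and H4C15, and H3C14 and H3C15. Besides the 6 genes with a stem-loop described above, 62 of 65 other listed replication-dependent genes were in the table and 16 passed the filter on low counts. Of these 16, edgeR called 0 with EGCG, 6 lower and 0 higher with Resveratrol, and 8 lower and 0 higher with Combination, with median log2 fold changes of -0.13, -0.21 and -0.58. Among all genes tested, 28.0% were called lower with Resveratrol and 29.9% with Combination. Between Combination and Resveratrol 4 of the 16 were lower and 0 higher, against 3.86% of all genes tested called lower, and 0 were called for the interaction. The 4 include both H4C14 and H4C15. With each of the near-identical pairs counted once, a count added after the data were seen, 14 genes remain, of which 6 were lower with Resveratrol (median -0.27), 8 with Combination (median -0.71) and 3 between Combination and Resveratrol. Since genes that pass the filter are those with enough counts in some group, the 16 do not stand for all 62.

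The 4 with the smallest p in Combination were H2BC12L, H4C11, H2AC25 and H2AC11. H2BC12L, an H2B gene on chromosome 21 near-identical to H2BC12 in its coding sequence, had 67.9 ± 8.06 normalized counts in NT, 48.2 ± 4.23 in Resveratrol and 34.3 ± 5.23 in Combination (mean ± SD, n = 6), a log2 fold change of -0.50 and -0.99. It was also lower in Combination than in Resveratrol, at -0.49 (edgeR adjusted p = 0.00782). H4C11, an H4 gene, went from 20.2 ± 6.52 in NT to 8.85 ± 2.63 in Resveratrol and 7.26 ± 1.95 in Combination, or -1.18 and -1.47. H2AC25 changed by -0.54 and -0.69, and H2AC11 by -0.36 and -0.79. The low counts of H4C11 make its fold the least precise of the 4, with an SE of 0.241 in Combination.

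**Figure D4:**
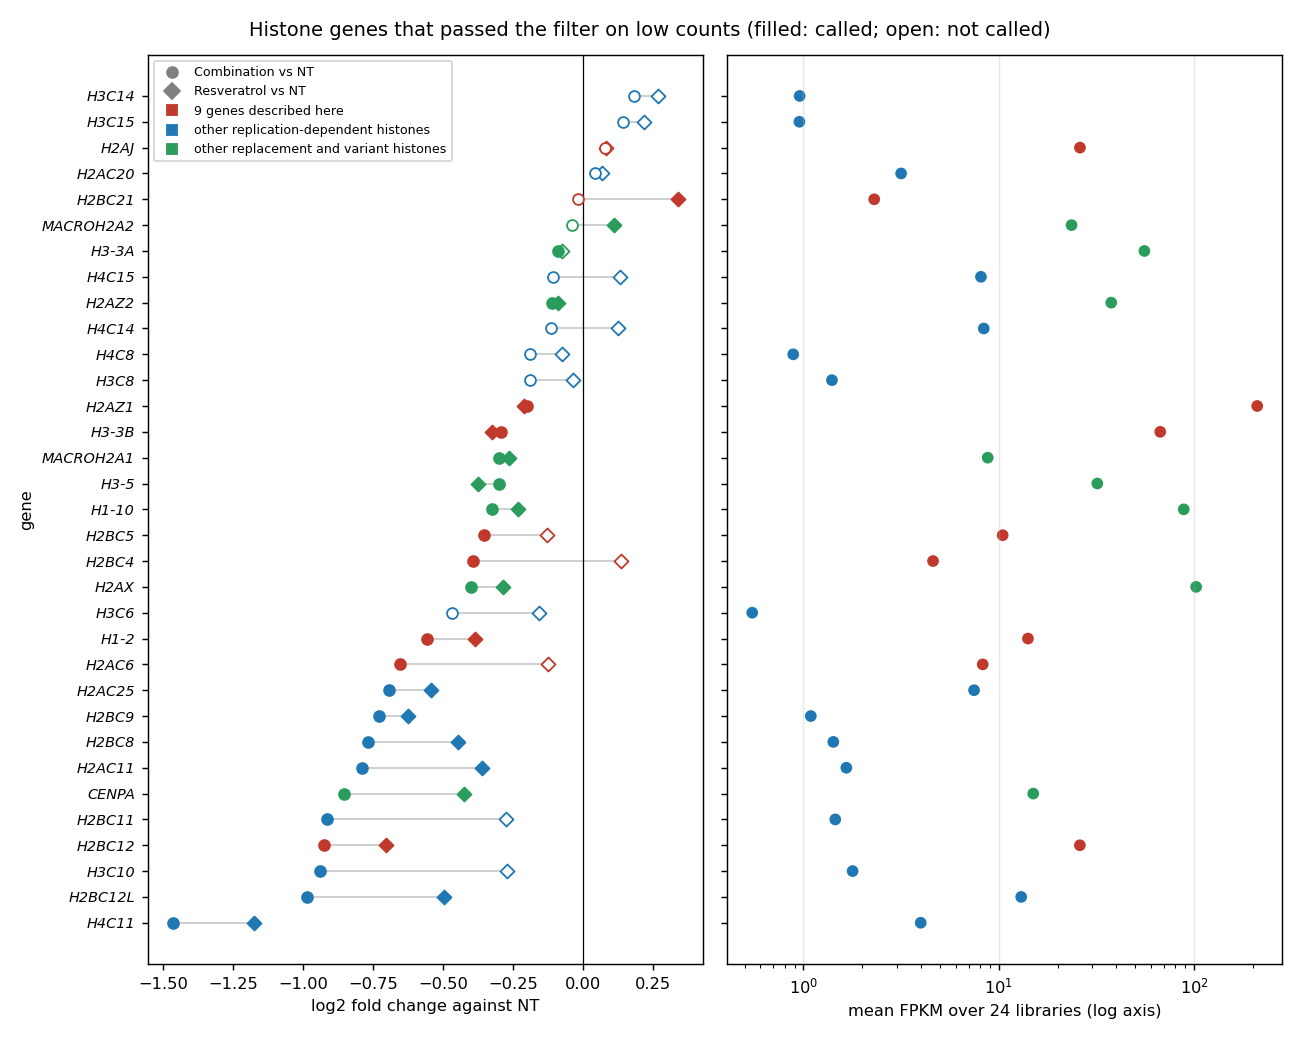
Log2 fold change against NT (left; circles Combination, diamonds Resveratrol, joined by a line for each gene, filled where called) and mean FPKM over 24 libraries on a log axis (right) for histone genes that passed the filter on low counts. H4C11 at -1.47 and H2BC12L at -0.99 lie lowest with Combination, and H2BC21, H2AJ, H3C14 and H3C15 lie near or above 0.

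The replacement and variant histones outside the 9 genes moved the same way in most cases. Of 9 listed, all passed the filter. EGCG lowered 2, Resveratrol lowered 7 and raised 1, and Combination lowered 8, with medians of -0.05, -0.26 and -0.30. Of all genes tested, 0.859% were called lower with EGCG, 28.0% lower and 28.9% higher with Resveratrol, and 29.9% lower with Combination. CENPA, the H3 variant of centromeres, went from 313.4 ± 13.3 normalized counts in NT to 301.1 ± 13.03 in EGCG, 232.3 ± 18.7 in Resveratrol and 173.3 ± 14.6 in Combination (mean ± SD, n = 6). CENPA and MACROH2A2 were the genes of this list called for the interaction, at -0.38 (edgeR adjusted p = 0.0253) and -0.24 (edgeR adjusted p = 0.0591). The interaction was called in 0.265% of all genes tested. H2AX, the variant phosphorylated at DNA breaks, changed by -0.14 with EGCG, -0.29 with Resveratrol and -0.40 with Combination. Partner genes of the 9 stood as follows. H3-3A, the other H3.3 gene, changed by -0.07 with Resveratrol, not called, and -0.09 with Combination (edgeR adjusted p = 0.056), against -0.33 and -0.29 for H3-3B. H2AZ2 changed by -0.09 and -0.11, both called, against -0.21 and -0.20 for H2AZ1. The differences between partners were not tested. H1-10, a linker histone, changed by -0.23 and -0.32, MACROH2A1 by -0.26 and -0.30, and H3-5, a retrocopy of H3-3B whose reads may be shared with it, by -0.38 and -0.30. MACROH2A2 was higher with Resveratrol at 0.11 and not called with Combination at -0.04.

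For factors that process or read histone messages, the number called with Resveratrol was near the share among all genes tested (56.9%; 59.8% with Combination). Of 19 listed and tested, edgeR called 0 with EGCG, 9 lower and 1 higher with Resveratrol, and 12 lower and 2 higher with Combination, with a median of -0.09 and -0.14. SRRT (ARS2, which couples the cap-binding complex to 3′ processing) changed by -0.32 with Resveratrol and -0.33 with Combination, CPSF2 (a subunit of the cleavage complex) by -0.19 and -0.34, CSTF2 (a cleavage stimulation factor subunit) by -0.26 and -0.29, and ELAVL1 (an RNA-binding protein) by -0.22 and -0.21. Among these, CPSF2 was also lower in Combination than in Resveratrol, at -0.15 (edgeR adjusted p = 0.00864).

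Histone chaperones were mixed. Of 24, edgeR called 11 lower and 4 higher with Resveratrol, where 56.9% of all genes tested were called, and 13 lower and 6 higher with Combination, where 59.8% were, with 1 higher with EGCG. SSRP1, a subunit of the FACT complex, changed by -0.40 and -0.42, and HJURP, the chaperone of CENPA, by -0.32 and -0.60. ANP32E, a chaperone that removes H2A.Z, changed by -0.46 and -0.55. ASF1B, an H3-H4 chaperone of dividing cells, went the other way at 0.41 and 0.47.

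Of 27 S-phase genes, 15 were lower and 8 higher with Resveratrol, and 16 lower and 8 higher with Combination; 1 was lower with EGCG. For this list and those of CDK inhibitors and squamous markers, the share of all genes tested that was called was 56.9% with Resveratrol and 59.8% with Combination. MCM5 and MCM6, subunits of the replicative helicase, changed by -0.46 and -0.42 with Resveratrol and by -0.50 and -0.49 with Combination. CCNA2 (cyclin A) changed by -0.45 and -0.72, and CDCA7 by -0.44 and -0.71, and both were lower in Combination than in Resveratrol, at -0.27. Of 7 CDK inhibitors, 4 were higher and 1 lower with Resveratrol, and 4 higher and 2 lower with Combination. CDKN1A, which codes for p21, went from 696.9 ± 31.8 normalized counts in NT to 1498 ± 43.5 in Resveratrol and 1780 ± 110.4 in Combination (mean ± SD, n = 6). These are log2 fold changes of 1.11 and 1.36. CDKN2B changed by 1.12 and 1.27, CDKN2A by 0.32 and 0.33, and CDKN2C by -0.07, not called, and -0.53. Their part in the histone levels was not tested. Of the 10 squamous markers, 5 were lower and 3 higher with Resveratrol, and 4 lower and 3 higher with Combination. The 4 with the smallest p were CDH1 (E-cadherin), at 0.29 and 0.43, and the keratins KRT6A, at -0.27 and -0.35, KRT5, at -0.29 and -0.37, and KRT17, at -0.41 and -0.36.

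Across the 24 libraries the 9 genes did not move as one. These correlations describe log2 CPM over libraries that share their groups, so a common response to treatment enters every one. H2AZ1 and H3-3B had a Pearson r of 0.956 with each other, H1-2 and H2BC12 of 0.83, and the promoter-sharing pair H2AC6 and H2BC4 of 0.433. The pairs did not follow the kind of gene: H2BC12 had an r of 0.833 with H3-3B and 0.808 with H2AZ1. With H2BC21, r was -0.14 for H2BC12 and 0.036 for H1-2. Outside the histone lists, the genes most like the 6 replication-dependent ones by mean r were KRT1 (0.639), TMPRSS11D (0.621) and SPRR1B (0.62), and those most like H2AZ1 and H3-3B were RPS23 (0.964), BTF3 (0.959) and BCCIP (0.958). SPRR1B, a cornified envelope gene, averaged 1707 normalized counts in NT, 1781 in EGCG, 1294 in Resveratrol and 976.1 in Combination, with r between 0.0967 and 0.893 over the 6 genes. RPS23, a ribosomal protein gene, averaged 3418, 3335, 2698 and 2710, the pattern of H2AZ1 and H3-3B, in which Resveratrol and Combination are alike.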

How the data were processed

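RNA-seq of 24 libraries (4 groups of 6) from total RNA was used. Per the labels and methods, stranded mRNA libraries (TruSeq) were sequenced as read pairs, trimmed with Trimmomatic 0.36, aligned to GRCh38 with HISAT2 2.0.4 and sorted with SAMtools 1.3.1; the counting program, annotation release, strand setting and handling of multiply matching reads are not given in the sources used here. The authors deposited raw counts per gene. The normalized counts, a signal made by the authors, are the raw counts over a size factor for each library. The authors' FPKM values are these divided by gene length, and served only for levels between genes.

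Testing used edgeR 4.0.16 under R 4.3.3 on the raw counts (TMM, filterByExpr, quasi-likelihood, all 24 libraries, 15476 genes; biological coefficient of variation 5.32%). A call needed p under 0.05 and, after Benjamini-Hochberg adjustment, under 0.1. Single genes also had a two-sided exact permutation test of mean log2 CPM (prior count 2), adjusted over 45 tests. DESeq2 1.42.0, other scalings, filters, thresholds, sample sets, a replicate block and sums over H2B genes were alternatives. The fits were tested on simulated data. Counting error is larger for genes with few counts (the lowest of the 9 had 822 in all libraries). Symbols of 60261 genes matched the annotation; H4-16 did not match, and expression of H2AC18 and H2AC19 was not analysed here. No replicate libraries of a group had identical counts. Promoters are from RefSeq GRCh38.p14 and gene models from GENCODE v44. The genes and lists were chosen with earlier results of these data known. Named were all 9 genes in every comparison, the 4 genes of each other list with the smallest p in Combination against NT, the other replacement and variant histones (the results of 1 are not reported here), overlapping or promoter-sharing neighbours, and the 3 genes most correlated with each kind.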

Additional observations from a re-analysis of the deposited data

Results flagged for a closer look

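In 7 of 36 groups of 6 libraries (9 genes in 4 groups), the highest or lowest library stood apart from the others by a gap above Dixon's 95% value, which chance gives in about 1 group in 20. In NT, H2BC5 was low in replicate 2, at 68.3 normalized counts. In EGCG, H2AJ was high in replicate 2, at 846.7, and H2BC21 was high in replicate 4, at 56.6. In Resveratrol, H2BC4 and H2BC21 were both high in replicate 5, at 47.5 and 68.1, and H2BC5 was high in replicate 3, at 94.3. In Combination, H2BC12 was high in replicate 3, at 71.0. Without Resveratrol replicate 5, H2BC21 was no longer called against NT (0.25, edgeR adjusted p = 0.131). Without NT replicate 2, H2BC5 was called lower with Resveratrol (-0.18, edgeR adjusted p = 0.0884), and likewise without Resveratrol replicate 3 (-0.19, edgeR adjusted p = 0.0782).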

How the results depend on the processing

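The counts of called genes among the 9 stayed within 1.5 times the reported count under every alternative, with the following exceptions. For Combination against Resveratrol (2 reported), 1 was called in replicates 1 to 3 alone and 1 in replicates 4 to 6 alone, sets with fewer samples. For the interaction (0 reported), 1 (H2AC6) was called with a term for the set of replicates, and leaving out 1 library at a time gave 0 to 1. The sums over H2B genes reversed H2BC21 and H2BC4 with Resveratrol, to -0.20 over the 4 H2B genes described and to -0.31 over all 19 replication-dependent H2B genes, sums that also hold H2BC12 and H2BC5, which have more counts. Of 1875 values of single genes under the alternatives, 1828 kept their side of the threshold (54 of them, uncalled in both, changed sign), 9 lost and 34 gained a call, and 4 reversed. Scaling by library size alone moved the median of all genes by 0.088 with Resveratrol and 0.083 with Combination. Same-numbered replicates deviated together only weakly, with r from -0.0111 to 0.131, a median of 0.0488, and over 0.1 in 2 of 36 pairs. The median r was 0.0276 for other numbers in the same set of 3 and -0.0406 across the sets. Each sample's own number was best in 30 of 72 cases. Whether the numbers pair samples was not tested. With the replicate number as a block, 0 genes were called with EGCG, 5 with Resveratrol and 7 with Combination against NT, 2 for Combination against Resveratrol, 7 against EGCG and 0 for the interaction. Low counts limit H2BC4 and H2BC21 most.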
